A study of Mus musculus with 4 samples.

Results

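SMAD proteins carry the signals of transforming growth factor beta (TGF-beta) and bone morphogenetic proteins (BMPs) into the nucleus, where ID genes are among their targets. From these 2 families 10 genes were followed here: Smad1 to Smad7 and Id1 to Id3. They were chosen by name from the 53647 genes of the deposited count tables. No rule on measured values picked them, but earlier results of these data were known when they were chosen. RNA had been sequenced from 4T1 cells, a mouse mammary carcinoma line labelled as wild type, in 2 groups of 2 libraries. The cells of one group had been given mRNA encoding uniSTING, a designed protein that mimics STING, an adaptor of innate immunity. Those of the other, labelled Mock, had been given mRNA encoding EGFP, a fluorescent protein. Cells of both groups were thus given an mRNA, and the carrier (a transfection reagent or lipid nanoparticles) is not tied to single libraries in the labels, which give neither dose nor time. The 2 libraries of a group are numbered preparations, called replicates here. Nothing says that they came from separate cultures, so the p-values reflect the spread among these libraries alone, which may be technical.

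Ligands of the TGF-beta family assemble pairs of receptor kinases, which phosphorylate receptor-regulated SMAD proteins. Smad2 and Smad3 proteins serve TGF-beta and activin receptors, Smad1 and Smad5 proteins serve BMP receptors, and both kinds enter the nucleus with the shared partner Smad4. Smad6 and Smad7 proteins are inhibitors whose genes are themselves induced by the pathway. ID proteins are helix-loop-helix proteins without a DNA-binding region. They bind E proteins and so keep basic helix-loop-helix factors off DNA, and their genes are classical BMP targets that TGF-beta can repress in epithelial cells. In mammary carcinoma the pathway is known for its part in invasion and metastasis.

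All 10 genes were abundant enough to be tested, and the calls among them went in both directions. Id2 and Id3 were higher in uniSTING libraries, and Smad3, Smad4, Smad5 and Smad7 were lower. Id1, Smad1, Smad2 and Smad6 did not pass the test. The largest changes were those of Id2, 2.34-fold higher, and Smad3, 1.62-fold lower. Levels are given as CPM, counts scaled to a common library size with TMM factors. A call means an adjusted p under 0.05 in edgeR's quasi-likelihood test over all 12972 genes tested. Of all tested genes 50.2% were called (24.9% higher and 25.4% lower), so that the 6 calls among 10 genes, 2 higher and 4 lower, are near the background and say nothing particular about the family. The median log2 fold change was -0.20 over the 7 SMAD genes and 0.34 over the 3 ID genes, against 0.006 over all genes tested, and with a trend on exon length removed it was that of Smad7, -0.18, and that of Id3, 0.17.

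**Figure D1:**
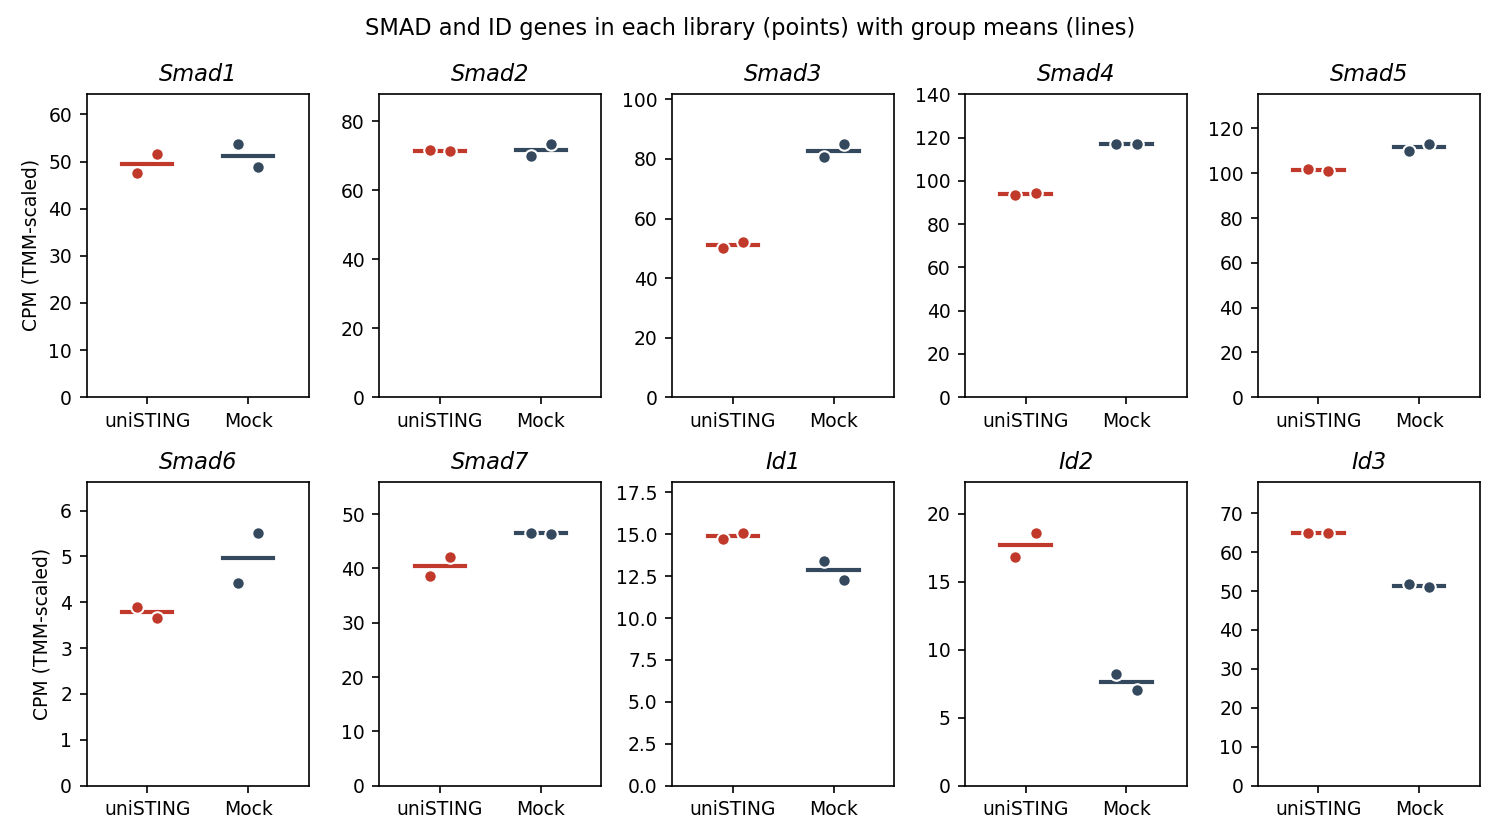
CPM (TMM-scaled, from 0 on each vertical axis) of the 10 genes in each of the 4 libraries, uniSTING left and Mock right; points are libraries and lines are the means of 2 libraries. Id2 sits at 16.8 and 18.6 CPM in uniSTING libraries and at 8.23 and 7.01 CPM in Mock libraries, and Smad3 at 50.2 and 52.1 CPM against 80.6 and 85.0 CPM.

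The libraries held 17502694 to 25071840 counts over genes. The epithelial and 4T1 marker list (keratins, claudins, Epcam and Cdh1) summed to 4460 and 4490 CPM in uniSTING libraries and to 4160 and 4200 CPM in Mock libraries, and 1 of its 10 genes stayed under 1 CPM in every library. In that list Krt19 rose most, at a log2 fold change of 1.0 (adjusted p = 3.91e-09). Cdh1 alone was called lower, at -0.20 (adjusted p = 2.79e-06). Marker lists of other cell types were low. The 6 fibroblast markers summed to 14.2 and 9.84 CPM in uniSTING libraries against 10.7 and 7.78 CPM in Mock libraries, and the 7 leukocyte markers to 13.1 and 11.6 CPM against 10.1 and 7.42 CPM, most of it from the macrophage and lysosomal marker Cd68. Cd68 had 10.7 and 10.4 CPM in uniSTING libraries against 8.34 and 6.43 CPM in Mock libraries, and was called higher (log2 fold change 0.53, adjusted p = 0.0065). Pdgfra made up most of the fibroblast sum, with 8.91 and 8.56 CPM in uniSTING libraries against 7.15 and 6.38 CPM in Mock libraries. It was also called higher (log2 fold change 0.37, adjusted p = 0.0243). Ptprc, which marks leukocytes in general, had 19 and 0 counts in uniSTING libraries and 8 and 0 counts in Mock libraries. Itgam had no count in any library. The 5 endothelial markers summed to at most 2.38 CPM in a library. The part of these marker levels in the results was not tested. Fewer cells that express a gene and less of its RNA per cell cannot be told apart in such samples.

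The stretches just before the transcription starts of Id2, Id3 and Smad3, the 3 called members with the largest changes, are shown because SMAD proteins bind DNA near such starts. They were taken from RefSeq on GRCm38.p6, an older build than that of the counts, as the 250 bases before the start, 5′ to 3′ on the gene's strand. The Id2 window lies at chr12:25096093-25096342 (minus strand), the Id3 window at chr4:136143572-136143821 (plus strand) and the Smad3 window at chr9:63757995-63758244 (minus strand). Capitals mark GGCGCC, a GC-rich element that BMP SMADs bind, and GTCT, the minimal SMAD box, each searched on both strands (GTCT reads AGAC on the other).
Id2: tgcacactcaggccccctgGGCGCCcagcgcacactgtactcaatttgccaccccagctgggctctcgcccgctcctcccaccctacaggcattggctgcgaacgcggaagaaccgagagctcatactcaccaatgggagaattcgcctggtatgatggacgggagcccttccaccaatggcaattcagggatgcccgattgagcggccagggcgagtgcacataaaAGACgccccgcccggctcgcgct
Id3: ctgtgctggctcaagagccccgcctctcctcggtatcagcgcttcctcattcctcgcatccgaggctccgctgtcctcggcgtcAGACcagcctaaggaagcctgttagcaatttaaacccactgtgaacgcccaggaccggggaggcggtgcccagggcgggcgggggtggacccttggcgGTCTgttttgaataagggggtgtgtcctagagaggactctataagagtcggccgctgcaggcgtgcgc
Smad3: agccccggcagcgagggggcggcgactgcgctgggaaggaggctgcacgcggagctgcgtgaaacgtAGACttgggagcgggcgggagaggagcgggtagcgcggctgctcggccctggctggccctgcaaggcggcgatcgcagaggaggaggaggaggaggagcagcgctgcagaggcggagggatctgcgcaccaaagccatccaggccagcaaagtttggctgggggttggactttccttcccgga

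The Id2 window held 1 GGCGCC, which begins 231 bases before the start, and 1 SMAD box at 23 bases. A window of Smad5 also held GGCGCC, at 19 bases. The element occurred in 9.59% of 32851 promoter windows of this length. The Id3 window held no GGCGCC and 2 SMAD boxes, at 166 and 68 bases, and the Smad3 window held 1 SMAD box at 183 bases. The SMAD box is short and occurred in 82.9% of all windows. The letters GAAANNGAA, part of the element bound by interferon regulatory factors, were in none of the 8 windows of the 6 members that the table holds and in 7.13% of all windows. A match is a description of letters and not a measured binding site.

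Of the SMADs that serve TGF-beta and activin receptors, Smad3 passed the test and Smad2 did not. Smad3 (ENSMUSG00000032402, chromosome 9, 63554049 to 63665276, minus strand, GRCm39) had 941 and 1297 counts in uniSTING libraries, against 1420 and 1878 counts in Mock libraries. In CPM it averaged 51.2 ± 1.33 in uniSTING and 82.8 ± 3.12 in Mock (SD, n = 2 libraries each), and the groups did not overlap. The log2 fold change was -0.69 (SE 0.05, adjusted p = 4.13e-07), and it was -0.68 between the libraries numbered 1 and -0.70 between those numbered 2. Only 4.44% of the tested genes had a lower log2 fold change. Smad2 (ENSMUSG00000024563), its closest relative in function, had 71.7 and 71.3 CPM in uniSTING libraries and 70.0 and 73.4 CPM in Mock libraries, which overlap. Its log2 fold change was -0.01 (SE 0.04, adjusted p = 0.928). Per kilobase of exon, Smad3 stood at 1.11 and 1.16 times the level of Smad2 in uniSTING libraries and at 1.82 and 1.83 times in Mock libraries. This within-library ratio is a description, and the difference between the 2 genes was not tested.

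Smad4 (ENSMUSG00000024515), the partner that all receptor-regulated SMADs share, was the most abundant member in Mock libraries per kilobase. It had 93.7 and 94.5 CPM in uniSTING libraries, against 117 and 117 CPM in Mock libraries. The log2 fold change was -0.32 (SE 0.03, adjusted p = 6.77e-06), a 1.24-fold lower level in uniSTING. Leaving out any 1 library gave values from -0.33 to -0.31, all past the threshold.

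The BMP-side SMADs changed little. Smad5 (ENSMUSG00000021540, chromosome 13, 56850823 to 56890190, plus strand) had 102 and 101 CPM in uniSTING libraries and 110 and 113 CPM in Mock libraries, without overlap, and passed the test, 1.10-fold lower (log2 fold change -0.14, SE 0.03, adjusted p = 0.00373). DESeq2 left it just outside (adjusted p = 0.0525). Smad1 (ENSMUSG00000031681, chromosome 8, 80065024 to 80126147, minus strand) had 47.5 and 51.5 CPM in uniSTING libraries and 53.7 and 48.8 CPM in Mock libraries, which overlap. Its log2 fold change was -0.04 (SE 0.06, adjusted p = 0.608). Smad9, the remaining receptor-regulated SMAD gene of this branch, was too low to be tested, with 7 and 16 counts in uniSTING libraries against 3 and 9 counts in Mock libraries. The ratio of its summed counts, scaled to library size, was 1.75, with a 95% counting interval (exact binomial) of 0.833 to 3.85.

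Both inhibitory SMAD genes had lower means in uniSTING. Smad7 (ENSMUSG00000025880), which blocks TGF-beta and BMP receptors alike, had 38.7 and 42.2 CPM in uniSTING libraries against 46.6 and 46.3 CPM in Mock libraries. It passed the test 1.15-fold lower (log2 fold change -0.20, SE 0.06, adjusted p = 0.0251). DESeq2 did not call it (adjusted p = 0.0883). The call was also lost when uniSTING replicate 1 was left out (log2 fold change -0.13, adjusted p = 0.0976), and likewise for either Mock library (adjusted p = 0.0786 for replicate 1 and 0.0561 for replicate 2). Smad6 (ENSMUSG00000036867, chromosome 9, 63860358 to 63929341, minus strand), which mainly restrains BMP signalling, was the rarest member, with 73 and 91 counts in uniSTING libraries and 78 and 122 counts in Mock libraries. At 3.90 and 3.66 CPM in uniSTING and 4.43 and 5.52 CPM in Mock it did not overlap, but it did not pass (log2 fold change -0.41, SE 0.17, adjusted p = 0.0749). Without Mock replicate 1, its lower library of the Mock pair, the value was -0.56 (adjusted p = 0.0494). When Mock replicate 2 was left out it was -0.23 (adjusted p = 0.438), and DESeq2 gave an adjusted p of 0.303.

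Among the ID genes, Id2 moved most and its log2 fold change lay above that of 98.4% of the tested genes. Id2 (ENSMUSG00000020644, chromosome 12, 25143798 to 25147139, minus strand, GRCm39) had 315 and 463 counts in uniSTING libraries, against 145 and 155 counts in Mock libraries. It averaged 17.7 ± 1.26 CPM in uniSTING and 7.62 ± 0.858 CPM in Mock (SD, n = 2 libraries each). Both uniSTING libraries lay above both Mock libraries, by more than the spread within a group. The log2 fold change was 1.23 (SE 0.10, adjusted p = 3.20e-06), and it was 1.02 between the libraries numbered 1 and 1.39 between those numbered 2. Id2 protein is known for its role in mammary alveolar development and in innate lymphocytes.

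Id3 (ENSMUSG00000007872, chromosome 4, 135870808 to 135873066, plus strand, GRCm39) was the most abundant ID gene, with 65.0 and 64.8 CPM in uniSTING libraries and 51.8 and 51.0 CPM in Mock libraries. The log2 fold change was 0.34 (SE 0.05, adjusted p = 1.32e-04). Id1 (ENSMUSG00000042745, chromosome 2, 152578171 to 152579330, plus strand), which is widely used as a readout of BMP signalling, had 14.7 and 15.1 CPM in uniSTING libraries against 13.4 and 12.3 CPM in Mock libraries. These groups did not overlap, yet Id1 just missed the threshold (log2 fold change 0.22, SE 0.09, adjusted p = 0.0546). It passed under a filter of 1 CPM or more in 2 or more libraries (adjusted p = 0.0475) and without Mock replicate 1 (log2 fold change 0.28, adjusted p = 0.0422). Without Mock replicate 2 it was at 0.15 (adjusted p = 0.327), and without uniSTING replicate 2 at 0.19 (adjusted p = 0.228). DESeq2 gave an adjusted p of 0.329. Id4, the rarest ID gene, had 19 and 35 counts in uniSTING libraries and 12 and 22 counts in Mock libraries, and its log2 fold change of 0.52 (SE 0.39) did not pass (adjusted p = 0.293). Leaving out 1 library moved it to 0.25 (uniSTING replicate 2), 0.28 (Mock replicate 1) or 0.83 (Mock replicate 2), none past the threshold.

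Across the tested genes, those with a short annotated exon length tended to be higher in uniSTING and those with a long one lower. The members differ in this length. Id1 to Id3 have 1.16, 2.44 and 1.79 kb of exon, and the SMAD genes 3.21 kb (Smad6) to 8.78 kb (Smad2). The trend alone puts a gene of the length of Id1 at a log2 fold change of 0.23, of Id3 at 0.17 and of Id2 at 0.11. At the other end it puts Smad2 at -0.15 and Smad5 at -0.11. With this trend removed, Id2 was at 1.12 (adjusted p = 1.39e-05), Smad3 at -0.64 (adjusted p = 1.65e-06) and Smad4 at -0.34 (adjusted p = 7.32e-06). Id3 was then at 0.17 and still passed (adjusted p = 0.0135), and Id1 was at -0.01. Smad5 lost its call at -0.03 (adjusted p = 0.540), and Smad2 gained one in the upward direction at 0.15 (adjusted p = 0.0127).

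**Figure D2:**
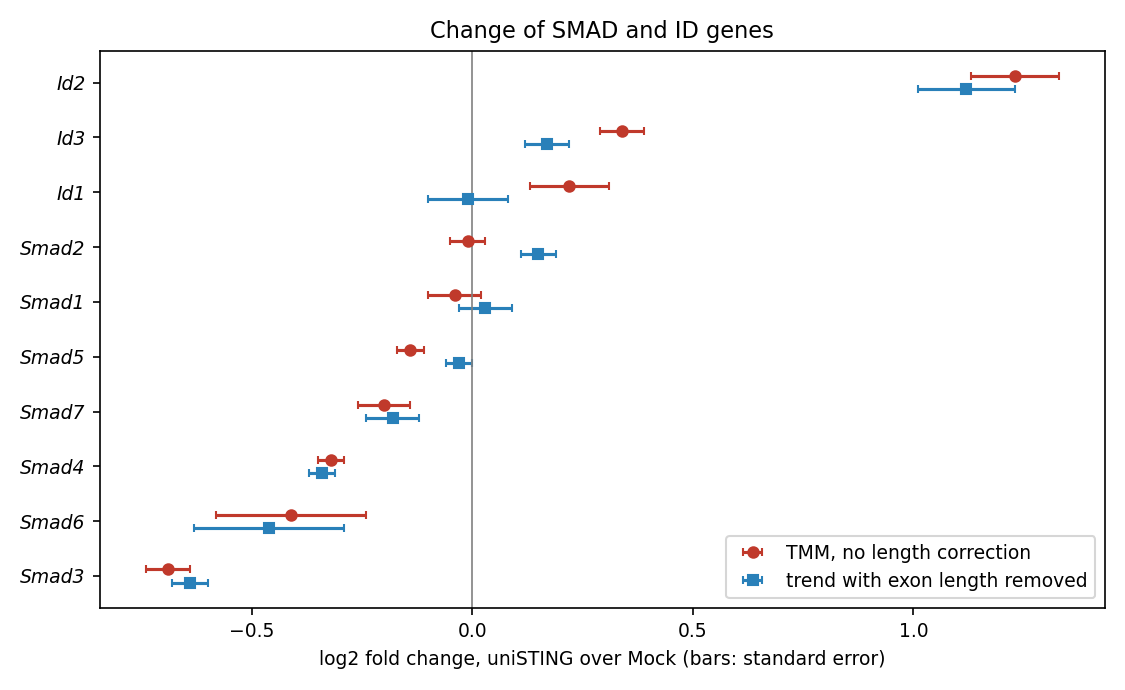
Log2 fold change of the 10 genes, uniSTING over Mock, with standard errors as bars, from the fit without length correction (circles) and with the trend on exon length removed (squares). Id2 at 1.23 and 1.12 and Smad3 at -0.69 and -0.64 lie farthest from 0 in both, whereas Id1 lies at 0.22 and at -0.01.

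Levels can be set between genes only per length. In CPM per kilobase of exon the order of the members differed between the groups. In uniSTING libraries Id3 was first at 36.3 and 36.2 CPM per kb, followed by Smad4 at 25.2 and 25.5 CPM per kb. In Mock libraries Smad4 was first at 31.6 and 31.5 CPM per kb, followed by Id3 at 28.9 and 28.4 CPM per kb. Next in level came Smad5 (13.8 and 13.6 CPM per kb in uniSTING libraries, 14.8 and 15.3 CPM per kb in Mock libraries). In uniSTING, Id1 followed at 12.9 ± 0.285 CPM per kb, and Smad3 (9.23 ± 0.240) and Smad7 (8.94 ± 0.545) had overlapping libraries, as did Smad1 with Smad2 and with Id2. In Mock, Smad3 (14.9 ± 0.563) overlapped with Smad5 and lay above Id1 (11.6 and 10.6 CPM per kb), the reverse of their order in uniSTING. Smad1 (8.18 ± 0.547) overlapped with Smad2 (8.16 ± 0.277) in Mock. Smad6 was last in both groups, at 1.18 ± 0.0531 CPM per kb in uniSTING and 1.55 ± 0.242 CPM per kb in Mock.

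**Figure D3:**
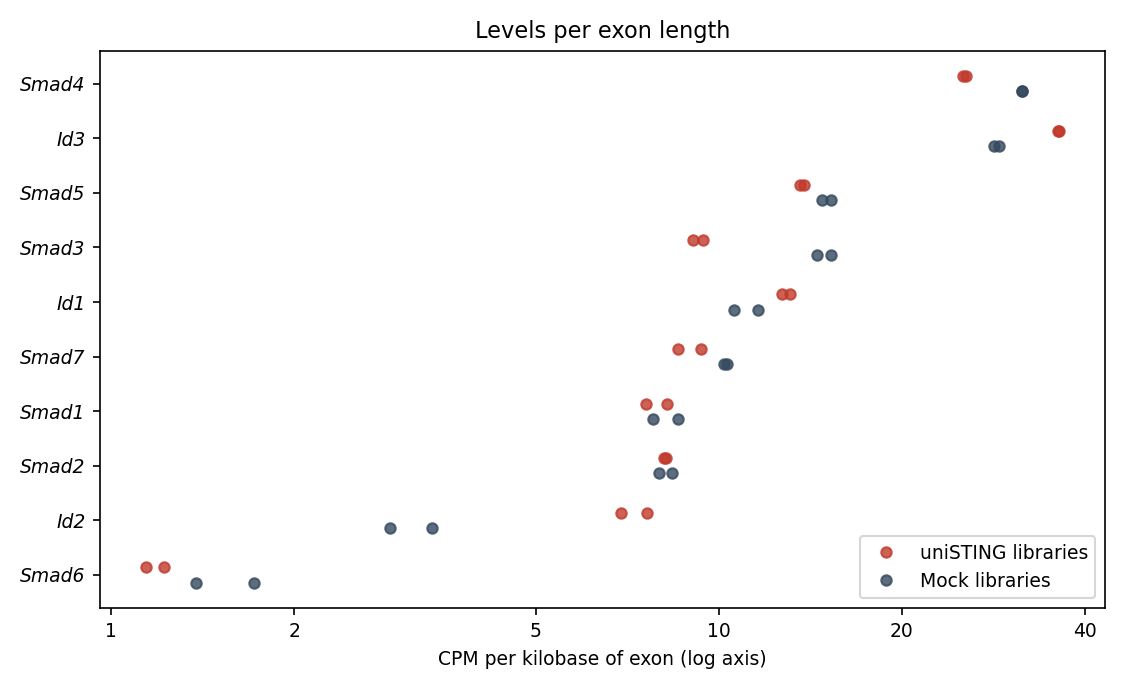
CPM per kilobase of exon (log axis) of each gene in the 4 libraries, with uniSTING above Mock in each row and rows ordered by the Mock mean. Id3 at 36.3 and 36.2 exceeds Smad4 at 25.2 and 25.5 in uniSTING libraries, and Smad6 is lowest in both groups.

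Summed over the family, the SMAD genes gave 73.6 and 75.3 CPM per kb in uniSTING libraries and 89.2 and 90.3 CPM per kb in Mock libraries. The ID genes Id1 to Id3 gave 55.8 and 56.9 CPM per kb in uniSTING libraries and 43.9 and 41.9 CPM per kb in Mock libraries. Id2 made up 12.9 ± 0.751% of the ID sum in uniSTING and 7.28 ± 0.581% in Mock, and Id3 64.3 ± 0.956% and 66.9 ± 1.42% (SD, n = 2 libraries each). Within the SMAD sum Smad3 made up 12.4 ± 0.132% in uniSTING and 16.6 ± 0.483% in Mock. The sum of Smad2 and Smad3 was 0.805 and 0.804 times that of Smad1 and Smad5 in uniSTING libraries and 0.962 and 1.03 times in Mock libraries. These sums and shares are descriptions that rest on the annotated exon length, and no test was made on them. The length trend between the groups was not removed from them. That trend alone puts Id1 at a log2 fold change of 0.23 and Id3 at 0.17.

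The rest of the pathway was read from lists of 149 genes by role, of which 91 could be tested. Among them 4 were higher, 50 lower and 37 did not pass, with a median log2 fold change of -0.22. The lower share is to be read against 25.4% of all genes tested and the higher against 24.9%, and neither is a test of the list. The same holds for the counts by role below. With the length trend removed, 10 were higher and 41 lower.

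At the level of ligands no change passed. Of 28 ligand genes 8 were tested and 12 had no count in any library. The highest in CPM was Inhba, which encodes the activin A subunit, with 81.6 and 85.8 CPM in uniSTING libraries and 80.7 and 77.7 CPM in Mock libraries (log2 fold change 0.08, adjusted p = 0.0886). It passed with the length trend removed (0.16, adjusted p = 0.00524) and when uniSTING replicate 1 was left out (0.12, adjusted p = 0.0337). When uniSTING replicate 2 was left out it was at 0.04 (adjusted p = 0.576), and at 0.05 for Mock replicate 2 (adjusted p = 0.499). DESeq2 gave an adjusted p of 0.401. The TGF-beta genes Tgfb1, Tgfb2 and Tgfb3, outside the rule for named genes, had log2 fold changes of -0.12, -0.19 and -0.08. Bmp7 was the one BMP gene above the filter, at 21.8 ± 0.348 CPM in uniSTING and 23.0 ± 0.466 CPM in Mock.

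Genes for proteins that hold or trap ligands outside the cell were lower in RNA where they passed. Of 11 tested extracellular regulators 6 were lower and 5 did not pass, where 25.4% of all genes tested were lower. The lower ones included the genes of all 4 latent TGF-beta binding proteins, which anchor latent TGF-beta in the matrix. Ltbp1 had 162 and 163 CPM in uniSTING libraries and 256 and 254 CPM in Mock libraries (log2 fold change -0.65, SE 0.02). Ltbp2 and Ltbp4 had log2 fold changes of -0.64 and -0.66, and Ltbp3, named as the remaining member of that family, of -0.49. With the length trend removed Ltbp1 was at -0.44, Ltbp2 at -0.51 and Ltbp4 at -0.58. Fstl1 was rare, with 0.801 and 0.683 CPM in uniSTING libraries and 2.44 and 1.22 CPM in Mock libraries. Its log2 fold change of -1.29 was -0.73 without Mock replicate 1 (adjusted p = 0.294), and the call was also lost with DESeq2 (adjusted p = 0.0652) and when uniSTING replicate 2 was left out (adjusted p = 0.0698). The BMP antagonist gene Nog, named here because of its values, had 2 and 2 counts in uniSTING libraries and 12 and 12 counts in Mock libraries, a ratio of 0.152 (95% counting interval 0.0383 to 0.442).

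Of 12 tested receptors and co-receptors 7 were lower and none higher, against 25.4% lower and 24.9% higher over all genes tested. Bmpr2, the type II BMP receptor, changed most, with 50.3 and 47.4 CPM in uniSTING libraries against 88.9 and 91.0 CPM in Mock libraries (log2 fold change -0.88, SE 0.04, adjusted p = 4.50e-08). With the length trend removed it was at -0.53. Tgfbr2, the type II TGF-beta receptor and the highest of the list in CPM, had 153 and 157 CPM in uniSTING libraries against 191 and 184 CPM in Mock libraries, a log2 fold change of -0.27 that was -0.14 with the length trend removed. The co-receptor Eng was at -0.29. Rgmb, a BMP co-receptor gene, was at -0.26 (adjusted p = 0.0221). DESeq2 did not call it (adjusted p = 0.203), and its call was lost with the length trend removed (adjusted p = 0.196). It was also lost when Mock replicate 2 was left out (adjusted p = 0.123) or uniSTING replicate 1 (adjusted p = 0.160).

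Inside the cell, 16 of 25 regulators of SMAD proteins were lower and 2 higher, against 25.4% and 24.9% of all genes tested. Ski, a corepressor that binds Smad3 and Smad4, had 58.9 and 59.9 CPM in uniSTING libraries against 95.7 and 95.9 CPM in Mock libraries (log2 fold change -0.69, SE 0.04). The corepressor Tgif2 was at -0.81 (SE 0.19), and Ctdsp2, a phosphatase that acts on SMAD linkers, at -0.63. Usp9x, a deubiquitinase of Smad4, was at -0.45, and at -0.15 with the length trend removed. Strap, which binds TGF-beta receptors, was higher at 388 and 388 CPM in uniSTING libraries against 354 and 356 CPM in Mock libraries (log2 fold change 0.13, SE 0.02), and at 0.07 with the length trend removed (adjusted p = 0.0159). The other higher one, picked out after its values were seen, was Tob1, whose protein restrains BMP SMADs, at 0.44 (SE 0.08), where the length trend alone gives 0.12. Of 11 tested DNA-binding partners and co-activators 8 were lower and none higher, read against the same shares. The acetyltransferases Crebbp and Ep300, co-activators of SMADs and of many other factors, were at -0.82 and -0.66, and at -0.54 and -0.37 with the length trend removed. Runx2 was at -0.47, and Yy1, the gene with the highest CPM of the list over the 4 libraries, at -0.03 without passing (adjusted p = 0.456) and at 0.05 with the length trend removed. Per kilobase, Tcf3 stood above Yy1 in both groups.

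**Figure D4:**
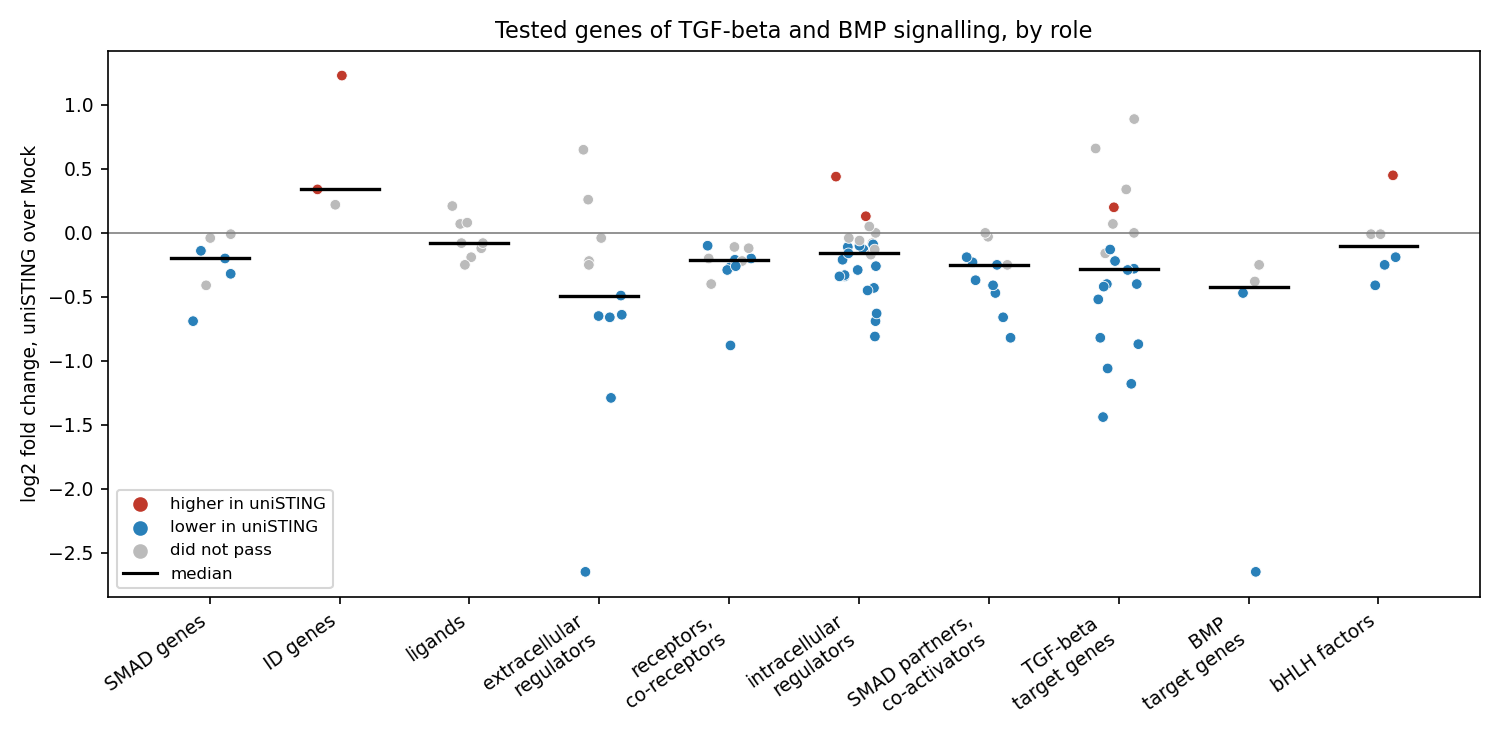
Log2 fold change of each tested gene, uniSTING over Mock, by role in the pathway, coloured by its call, with the median of each role as a line; genes on more than 1 list are drawn in each. In this fit without length correction the ID genes are the one column with a median above 0, at 0.34 (0.17 with the trend on exon length removed). The extracellular regulators and BMP targets have the lowest medians, at -0.49 and -0.43. The BMP target median rests on 4 tested genes, and Hey1, Gata2 and Nog among them stayed under 1 CPM in every library.

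Of 20 tested genes known as TGF-beta targets in various cells, 13 were lower, 1 was higher and 6 did not pass. Over all genes tested 25.4% were lower and 24.9% higher. The median log2 fold change of these targets was -0.28. The growth factor gene Pdgfb had 87.1 and 85.2 CPM in uniSTING libraries against 150 and 154 CPM in Mock libraries (log2 fold change -0.82, SE 0.03, adjusted p = 5.55e-09). Fn1, which encodes the matrix protein fibronectin, was at -1.18, Mmp9 at -1.06, and Vim, with the highest CPM of the list, at -0.22. With the length trend removed Fn1 was at -0.95, Mmp9 at -1.09 and Vim at -0.20. The higher one was Timp1, a metalloproteinase inhibitor gene, at 0.20 (adjusted p = 0.0158), picked out after its values were seen. The length trend alone puts a gene of its length, 0.888 kb, at 0.25, more than its own change. Most of these genes answer to other pathways as well. Of 13 BMP target genes other than the members 4 were tested and 2 were lower, Runx2 and Nog. Common BMP targets such as Msx2 and Dlx5 had no count in any library.

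Of the E proteins that ID proteins bind, Tcf3 had the highest level per kilobase, at 32.1 CPM per kb in uniSTING and 42.5 CPM per kb in Mock (means of 2 libraries). Tcf12 averaged 6.42 CPM per kb in uniSTING and 7.66 in Mock, and Tcf4 3.19 in uniSTING and 3.66 in Mock. In CPM, Tcf3 had 128 and 131 CPM in uniSTING libraries against 168 and 176 CPM in Mock libraries (log2 fold change -0.41, SE 0.03, adjusted p = 1.23e-06). Tcf12 and Tcf4 were called lower at -0.25 and -0.19. With the length trend removed their directions turned, to 0.06 for Tcf12 (adjusted p = 0.178) and to 0.29 for Tcf4 (adjusted p = 9.75e-05), and Tcf3 was at -0.42. These turns and the order per kilobase depend on the union of all annotated exons of a gene. That union is 27.4 kb for Tcf4, 15.5 kb for Tcf12 and 4.04 kb for Tcf3, and the isoforms in use were not measured. Hes1, a basic helix-loop-helix repressor best known as a Notch target, was higher at 44.7 and 44.4 CPM in uniSTING libraries against 33.1 and 32.3 CPM in Mock libraries (log2 fold change 0.45, SE 0.06), and at 0.30 with the length trend removed. Of 6 tested basic helix-loop-helix genes 1 was higher, 3 were lower and 2 did not pass, against 24.9% higher and 25.4% lower over all genes tested.

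The genes whose pattern over the 4 libraries was most like that of a member were found by the Euclidean distance of log2 CPM centred on each gene's mean, among 9460 other tested genes of at least 5 CPM. Nearest to Id2 were Zfp954, Aldoc and Oas1a (distances 0.123, 0.134 and 0.150), with log2 fold changes of 1.16, 1.18 and 1.37. Nearest to Smad3 were Notch1, Prr12 and Itprip (0.013, 0.023 and 0.034), and nearest to Id3 were Cops3, Snx2 and Atp5c1 (0.002, 0.008 and 0.009). With 4 libraries in 2 groups this likeness reflects mainly the size of the difference between groups, and it says nothing of shared function.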

How the data were processed

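Per the file headers, the authors counted reads per gene with featureCounts 2.0.1 on exons, summed by gene, paired-end and without a strand option, from uniquely mapped alignments (HISAT2, per the submitters' processing notes) on Ensembl 103 of GRCm39. The deposited values are raw counts. The deposited exon length (union of exons) gave CPM per kb, which depends on which isoforms a gene uses. Symbols came from an identifier table (52093 of 53647 identifiers matched), and 4 older symbols were allowed for. No exon of a member shares bases with an exon of another annotated gene.

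The count test was that of edgeR 4.0.16 (R 4.3.3): TMM, the expression filter by group (minimum count 10, total 15), glmQLFit and glmQLFTest, Benjamini-Hochberg over 12972 genes, threshold 0.05. The common coefficient of variation was 3.15%. Standard errors come from the F statistic and are approximate. CPM use TMM-scaled totals, and log2 CPM a prior count of 2. The length trend was a lowess per library (span 0.3), entered as offsets. Alternatives were DESeq2 1.42.0 and its size factors, limma-voom 3.58.1, 2 other filters, the replicate block and leaving out each library, where the lone library left in a group is assumed to vary like the other group. The fit was tested on simulated data with a common spread and 50 changed genes per size of change. It recovered 70% of the 1.25-fold and 98% of the 2-fold changes, with 5 false calls among 180. Far fewer genes changed there than were called here. It could thus not test the scaling under many changes, nor a spread that differs between genes. Counting intervals and floors cover counting error only.

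The members, lists and alternatives were chosen with earlier results of these data known. Besides the members, genes are named by rule: up to 4 called genes per list with the largest change (mean of at least 1 CPM, groups apart), the gene with the highest mean CPM per list, and 3 nearest patterns for each of 3 members. Others are said to be picked out or serve as family members. A gene that the rule names is not reported here.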

Additional observations from a re-analysis of the deposited data

How the results depend on the processing

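Id2, Id3, Smad3 and Smad4 kept their direction and call under all 11 alternatives, and leaving out each library moved Id2 between 1.11 and 1.33 and Smad3 between -0.74 and -0.66 on the log2 scale. DESeq2 called fewer genes in the whole set, 2159 higher and 2358 lower in place of 3225 and 3290. The SMAD and ID genes called lower numbered 2 with DESeq2 in place of 4, since Smad5 (adjusted p = 0.0525) and Smad7 missed the threshold. Without 1 library they numbered 3 to 4, and those called higher 2 to 3. The pathway genes called higher numbered 10 with the length trend removed in place of 4, and without 1 library 3 to 6. With the replicate block the members called were again 2 higher and 4 lower, and over all genes 3374 were higher and 3403 lower in place of 3225 and 3290. Same-numbered libraries deviated together (correlation 0.531 over 7970 genes of at least 16 CPM), but the labels give the number no meaning. The rare transcripts of Ptprc, Col3a1 and Dcn had counts only in the libraries numbered 1, in both groups. Whether the number marks a shared batch was not tested. Directions turned with the length trend removed for Smad1 (0.03), Smad2 (0.15), Id1 (-0.01), Tcf12 (0.06), Tcf4 (0.29) and Yy1 (0.05). Without 1 library Smad1 ran from -0.12 to 0.02 and Smad2 from -0.05 to 0.03. The cause of these turns beyond the removed trend was not tested. Depth limits Smad6, Smad9, Id4, Nog and Fstl1.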

Other observations

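Lefty1, which encodes a secreted antagonist of Nodal and is named because of its values, had 7 and 6 counts in uniSTING libraries and no count in either Mock library. Set against an assumed 3 counts for the Mock group as a whole, its ratio scaled to library size was 3.95. That ratio leaves out the counting error of the uniSTING counts and is no lower bound. Nodal itself had no count in any library. The gene was too low to be tested.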
